A study of Mus musculus with 120 samples.

Results

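Very long genes are the largest protein-coding genes of the mouse genome, and the windows described here lie deep inside them. A window was a member if it was on chromosomes 1 to 19, overlapped the body of a protein-coding RefSeq gene of 500 kb or longer, and lay more than 1 kb from the start or end of every coding gene. Of the 8961 windows of 1 kb that the authors called between genotypes, 460 (5.13%) met this rule, and they fell in 181 of the 216 autosomal genes of that length. The rule used position alone and no measured value.

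The windows came from whole-genome bisulfite sequencing of 120 libraries from hippocampus or blood, made from App-NLGF or wild-type mice. In the App-NLGF knock-in the mouse App gene, on chromosome 16, has a human amyloid-beta stretch with the Arctic, Iberian and Swedish changes of familial Alzheimer disease, so that plaques form while the precursor stays under its own promoter. There were 10 App-NLGF and 10 wild-type libraries, 5 of each sex, for each tissue at postnatal weeks 3, 8 and 24, which makes 6 comparisons of App-NLGF with wild type, each with its own list of called windows. The study asked which epigenomic differences come before amyloid deposition in hippocampus. Whether hippocampus and blood came from the same animals is not given in the labels. Each value is the authors' methylation difference in percentage points, read as App-NLGF minus wild type from the name of the comparison alone, so all directions would flip with the opposite order. Every listed window passed an adjusted p of 0.1 and differed by 10 points or more. Values per library, methylation levels and coverage were not analysed here, so depth is unknown, no spread between animals stands beside a value, and no test between samples was made. In bulk tissue a different mix of cell types and a different level within a cell type cannot be told apart, and markers of cell types could not be checked on these lists.

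Very long genes are made almost wholly of introns, and many encode adhesion molecules, receptors, channels and splicing factors of neurons. Their bodies are often methylated at CpG in brain, while CpG-rich starts of transcription are usually unmethylated. Many also have further starts of transcription far inside the gene, from which shorter transcripts are made, and these lie away from the ends that the rule set aside.

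A set of such internal starts carried called windows in blood at week 8. On a 1 kb grid, 179044 windows met the position rule, and 456 of them touched the stretch from 250 bases before to 50 bases after a start in the RefSeq table (GRCm38.p6), of any gene. Of the 216 very long genes, 169 had an entry of their own there. In blood at week 8, 7 of these 456 windows were called (1.54%, 95% Clopper-Pearson interval 0.619 to 3.14), against 156 of the 178588 windows that touched none (0.0874%, 0.0742 to 0.102). All 7 were lower in App-NLGF. At the ends of coding genes of any length, 1.72% of grid windows were called in this list and 99.4% of those were lower. That set is wider, since it takes in downstream ends as well as starts, and windows up to 1 kb away. A share for windows that touch the starts of other genes was not counted. Whether internal starts of very long genes differ from other starts was thus not tested. Nothing particular to very long genes is read from the share or the direction. In each of the other 5 lists 0 of the 456 were called, which allows a share of up to 0.806%. Those lists had 0.0204% to 0.0442% of the whole autosomal grid called, and 0.0156% to 0.0552% of grid windows at gene ends. A count of 0 among 456 is near these shares, so no contrast with blood at week 8 is read from it. Within 1 kb of an internal start there were 10 windows in blood at week 8, in Dab1, Epha6, Etl4, Fgf12, Fgf14, Mecom, Prkg1, Ptprn2, Sox6 and Trpm3, all lower, and 0 windows in the other 5 lists. The 250 bases before some of these starts are printed here to show how widely they differed in CpG content, with each CpG in capitals and the strand of the transcript read 5′ to 3′.
Dab1 (chr4:104367288-104367537, plus strand): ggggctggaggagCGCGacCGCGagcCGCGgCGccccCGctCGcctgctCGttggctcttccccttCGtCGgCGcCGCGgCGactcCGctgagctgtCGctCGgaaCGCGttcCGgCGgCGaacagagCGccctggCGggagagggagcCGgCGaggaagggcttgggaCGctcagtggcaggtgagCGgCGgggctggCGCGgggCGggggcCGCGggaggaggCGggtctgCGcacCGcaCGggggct
Sox6os, antisense to Sox6 (chr7:116031729-116031978, plus strand): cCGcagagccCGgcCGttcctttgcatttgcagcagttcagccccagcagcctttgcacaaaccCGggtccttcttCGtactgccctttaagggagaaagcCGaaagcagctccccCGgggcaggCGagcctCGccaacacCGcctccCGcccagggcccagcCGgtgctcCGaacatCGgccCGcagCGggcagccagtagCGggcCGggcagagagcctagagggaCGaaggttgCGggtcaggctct
Epha6 (chr16:60605532-60605781, minus strand): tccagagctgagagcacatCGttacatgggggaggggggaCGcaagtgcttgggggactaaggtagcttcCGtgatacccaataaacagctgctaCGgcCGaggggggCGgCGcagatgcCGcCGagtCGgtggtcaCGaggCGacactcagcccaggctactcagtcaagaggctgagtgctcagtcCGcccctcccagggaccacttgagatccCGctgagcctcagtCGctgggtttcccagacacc
Mecom (chr3:30013205-30013454, minus strand): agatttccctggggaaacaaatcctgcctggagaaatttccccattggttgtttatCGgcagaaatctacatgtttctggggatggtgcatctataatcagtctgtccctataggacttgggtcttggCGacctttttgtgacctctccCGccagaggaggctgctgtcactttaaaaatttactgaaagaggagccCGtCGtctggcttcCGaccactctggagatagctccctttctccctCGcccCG
Etl4 (chr2:20519263-20519512, plus strand): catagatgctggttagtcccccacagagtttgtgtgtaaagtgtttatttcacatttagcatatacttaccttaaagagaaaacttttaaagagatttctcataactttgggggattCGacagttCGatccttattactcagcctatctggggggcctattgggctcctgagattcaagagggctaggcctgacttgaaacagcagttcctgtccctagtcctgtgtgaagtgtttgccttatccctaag

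The Dab1 start held 40 CpG in these 250 bases, a number that 1.31% of the 32851 RefSeq promoters reached, and lay 748 kb inside the gene. Dab1 encodes the adaptor of the reelin pathway in neuronal migration, and the authors' deposited table gives its window -10.5 points (adjusted p = 0.000585). The start of Sox6os held 20 CpG and that of Epha6, an ephrin receptor gene, held 15. The windows there had the smallest adjusted p of windows in very long genes in blood at week 8. They stood at -10.8 points (2.37e-05) and -11.3 points (2.3e-05) in the authors' deposited table. The adjustment differs with the number of windows called in a list, so adjusted p is not ranked across lists. These starts lay 8.80 kb and 5.38 kb inside the annotated Sox6 and Epha6 genes, so they were close to the ends of the genes although outside the 1 kb limit. The printed Sox6os bases lie just before the called window, which begins at 116032001. Mecom, a regulator of blood stem cells, had an internal start with 8 CpG, and the median over all promoters was 6. Its window stood at -11.0 points (adjusted p = 0.0507), per the authors' deposited table. The Etl4 start, with 2 CpG, had a window at -10.6 points (adjusted p = 0.0819), per the authors' deposited table. Called windows were thus not confined to CpG-rich starts, although this window was near the limit of 0.1. CpG was counted in the 250 bases before each start and not over the called window. Of the 5 windows with the smallest adjusted p in this list, 4 lay within 1 kb of a RefSeq start, and the fifth, in the transcription factor gene Zfhx3 at -10.4 points, did not. The differences were small, and each of these 10 windows lay between -10.2 and -12.0 points in the authors' deposited table.

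**Figure D1:**
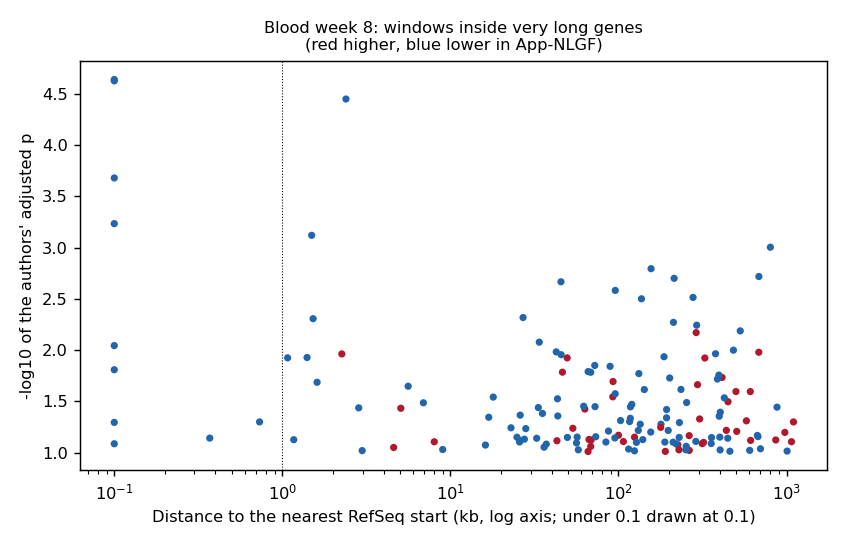
Called windows inside very long genes, blood at week 8, with the distance to the nearest RefSeq start in kb (log axis) and -log10 of the authors' adjusted p. Red is higher and blue lower in App-NLGF. The 10 windows left of the dotted line at 1 kb are all lower, and 4 of the 5 highest points are among them.

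Called windows were about as dense inside very long genes as elsewhere in 5 of the 6 lists. There were 69, 48 and 64 member windows in hippocampus at weeks 3, 8 and 24, and 83, 163 and 33 in blood. Over all windows tested, a number recovered from the deposited p-values, called windows made up 0.044%, 0.0318% and 0.0408% in hippocampus and 0.0495%, 0.196% and 0.0244% in blood at these weeks. On the autosomal 1 kb grid, very long genes made up 7.33% of positions. In hippocampus 0.0385% of their grid windows were called at week 3, against 0.0393% of the whole autosomal grid. The shares were 0.0268% in very long genes and 0.0282% in the whole grid at week 8, and 0.0357% and 0.0360% at week 24. In blood they were 0.0464% and 0.0442% at week 3, and 0.0184% and 0.0204% at week 24. These shares are near the background, and the counts in these 5 lists give no result particular to very long genes.

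Blood at week 8 was the exception, with 0.0910% of grid windows in very long genes called (0.520 times the whole grid, at 0.175%). The ends of coding genes, which the rule removes, held 43.8% of the autosomal windows of this list, at 17.2 windows per 1000. Among grid windows away from coding gene ends the same density was 0.883 times that of all such windows. The density in very long genes, 0.910 per 1000 (0.776 to 1.06), lay beside 0.834 (0.746 to 0.929) in genes of 100 to 500 kb, 0.980 (0.929 to 1.03) outside coding genes and 1.52 (1.40 to 1.66) in genes under 100 kb. Among windows of at least 15 points the ratio to the whole grid turned round to 1.17. Called windows in very long genes had fewer small p-values than the rest of this list, with 13.5% of them at an adjusted p under 0.01 against 43.9% of all other autosomal windows. Gene ends stood at 65.2%, all windows away from gene ends at 25.3%, genes of 100 to 500 kb at 27.3% and windows outside coding genes at 19.1%.

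**Figure D2:**
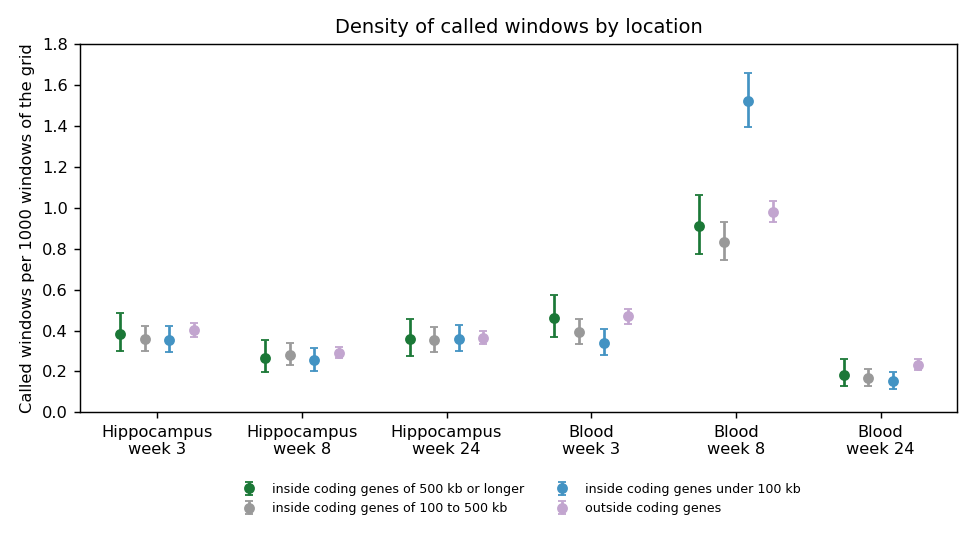
Called windows per 1000 windows of the autosomal grid in the 6 lists, by location, with 95% Clopper-Pearson intervals over windows; gene ends, at 17.2 in blood at week 8, are not drawn. Very long genes lie close to the other locations in 5 lists, and in blood at week 8 genes under 100 kb stand highest of the locations drawn, at 1.52 per 1000.

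Windows inside very long genes had the same majority direction as the whole list in 5 of the 6 lists, although in hippocampus at week 8 it turned with the settings. In hippocampus at week 3, 17 windows were higher and 52 lower (24.6% higher, interval 15.1 to 36.5), beside 29.5% (26.5 to 32.6) of all other autosomal windows. At week 8, 25 were higher and 23 lower (52.1%, 37.2 to 66.7), beside 55.4% (51.4 to 59.3) of the others, but the share turned to 35.7% among genes of at least 1000 kb and to 31.2% among windows of at least 15 points. In blood 51 were higher and 32 lower at week 3 (61.4%, 50.1 to 71.9), beside 63.5% (60.4 to 66.5) of the others. At week 24 blood had 31 higher and 2 lower windows (93.9%, 79.8 to 99.3), beside 80.0% (76.0 to 83.5). The intervals overlapped in each of these 4 lists. Over all tested windows, higher and lower calls made up 0.013% and 0.0311% in hippocampus at week 3 and 0.0174% and 0.0145% at week 8, and 0.0313% and 0.0182% in blood at week 3 and 0.0202% and 0.00426% at week 24.

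At week 24 in hippocampus the very long genes leaned to lower methylation while the rest of the list leaned to higher. There 26 windows were higher and 38 lower (40.6%, 28.5 to 53.6), against 58.6% (55.1 to 62.0) higher among all other autosomal windows, and over all tested windows 0.0239% were higher and 0.0169% lower calls. Genes of 100 to 500 kb, at 55.0% higher (46.4 to 63.4), lay between them. Chromosome 16, which carries App, held 10 of the 64 windows, 9 of them lower, in Cadm2, Epha6, Fgf12, Kalrn, Lpp, Rbfox1, Robo2 and Zbtb20, none nearer to App than 10492 kb. This chromosome made up 6.33% of the very long gene grid and 15.6% of these windows. Of the 816 other windows it held 27 (3.31%), 12 higher and 15 lower. Without chromosome 16, 46.3% (32.6 to 60.4) were higher, beside 59.1% (55.5 to 62.5) of the others, and the intervals overlapped. In blood at week 24 this chromosome held 7 of the 33 windows (21.2%), all higher, and 92.3% of those on other chromosomes were higher. Outside very long genes, 21 of 464 windows of that list were on chromosome 16, 16 of them higher. Its share of the windows in very long genes was 10.4% in each tissue at week 8. At week 3 it was 4.35% in hippocampus and 6.02% in blood. Windows of a list come from the same animals, so the intervals describe the list, and the difference in direction was not tested over animals.

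Blood at week 8 was lower less uniformly in very long genes than in the rest of its list, with 43 windows higher and 120 lower (26.4%, 19.8 to 33.8), against 10.3% (9.37 to 11.3) higher among the others. Over all tested windows 0.0218% were higher and 0.175% lower calls. Among all windows away from gene ends, very long genes included, 18.9% (17.4 to 20.5) were higher, and this interval overlapped that of very long genes. Windows outside coding genes had a share of 23.7% (21.5 to 26.0), genes of 100 to 500 kb 15.2% (11.5 to 19.5), genes under 100 kb 6.58% (4.62 to 9.03) and gene ends 0.588% (0.294 to 1.05). Very long genes thus lay near the windows outside coding genes, and the share of higher windows was lowest at gene ends. Without the windows within 1 kb of internal starts the share in very long genes was 28.1%.

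**Figure D3:**
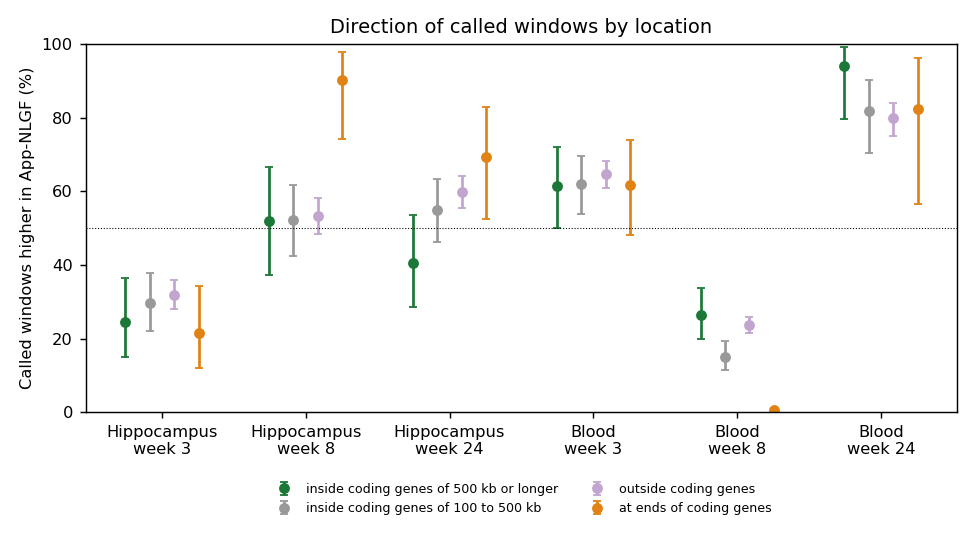
Share of called windows higher in App-NLGF in the 6 lists, by location, with 95% Clopper-Pearson intervals over windows and a dotted line at 50%. Windows inside very long genes stand at 40.6% in hippocampus at week 24, below the other locations drawn, and at 26.4% in blood at week 8, far above gene ends.

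Sizes were much the same inside very long genes as elsewhere. The median absolute difference was 14.2, 13.2 and 14.0 points in hippocampus at weeks 3, 8 and 24, beside 13.7, 13.3 and 13.9 points among all other autosomal windows. In blood it was 13.9, 12.3 and 13.9 points, beside 14.8, 11.6 and 13.6 points. The values ran from -31.7 to 38.9 points.

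**Figure D4:**
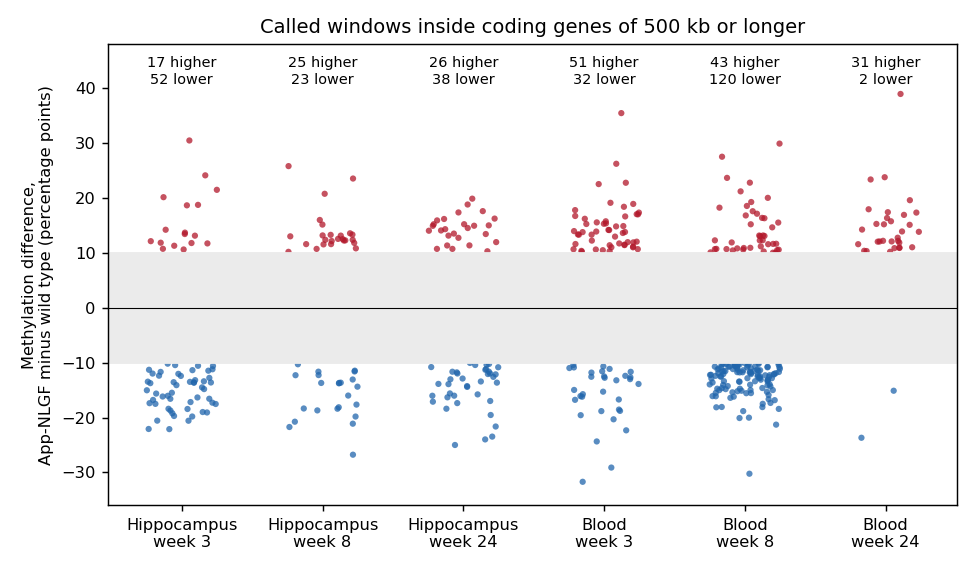
Methylation difference of each of the 460 windows inside very long genes, in percentage points, by list, with red for higher and blue for lower in App-NLGF. The grey band marks differences under 10 points, which the lists leave out; blood at week 24 has 31 windows above it and 2 below.

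Lower windows led in hippocampus at week 3, and its 69 windows fell in 57 genes. The largest increase was in Mgat4c, a glycosyltransferase gene, at 30.4 points on chromosome 10 from 102143001 to 102144000, and the authors' deposited table gives it the smallest adjusted p of this list, 6.87e-05. Another Mgat4c window was lower, with -13.6 points in the authors' deposited table. Cntnap2, a neurexin-family protein that gathers potassium channels on axons, followed at 24.1 points, but 2 other windows of the gene stood at -17.2 and -12.0 points, per the authors' deposited table. Cntnap2 and Mgat4c thus held windows of opposite sign in the same tissue and week. Increases were also listed for Malrd1 (21.5 points), the calcium sensor of vesicle release Syt1 (18.7 points), Agbl4 (18.6 points), Pkhd1 (14.2 points) and Nav3 (13.7 points) in the authors' deposited table. Decreases were led by Skint5 and the cadherin Cdh18, both at -22.1 points, followed by the calmodulin-binding transcription activator Camta1 and the metabotropic glutamate receptor gene Grm7, both at -20.6 points, per the authors' deposited table. The transcription factor Zbtb20 was at -19.8 points, Naaladl2 at -19.7 points, the release-priming gene Unc13c at -19.2 points and the proton-gated channel gene Asic2 at -19.1 points, per the authors' deposited table. None of these 8 genes had a higher window in this list. Small adjusted p also marked Nell1 (-19.001 points, 0.00478), Etl4 (13.1 points, 0.00649) and the splicing factor gene Rbfox1 (-17.5 points, 0.00680) in the authors' deposited table. Etl4 also had lower windows in this list, at -17.5 and -11.4 points, per the authors' deposited table. Tenm2, a teneurin of synaptic adhesion, had 3 lower windows at -11.2, -14.8 and -15.0 points in the authors' deposited table.

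Hippocampus at week 8 had the fewest windows of the hippocampal lists, 48 in 42 genes, divided almost evenly by direction. The largest increases were in the giant cadherin Fat3 at 25.8 points, Epha6 at 23.5 points and the protocadherin Pcdh9 at 20.7 points, per the authors' deposited table. Pcdh9 was the only gene of these 3 that was also called higher at week 3. Epha6 also had a lower window at week 8, at -12.3 points, per the authors' deposited table. The fragile-site gene Fhit (15.96 points), Enox1 (15.1 points), Csmd2 (13.5 points) and the potassium channel partner Dpp6 (13.3 points) came next in the authors' deposited table. Decreases were led by Nell1 at -26.8 points on chromosome 7 from 50343001 to 50344000, Iqcm at -21.7 points, the synaptic calsyntenin Clstn2 at -21.1 points and Sntg1, a syntrophin, at -20.8 points, per the authors' deposited table. L3mbtl4 (-19.8 points), Sugct (-18.7 points), Lpp (-18.4 points) and the synaptic scaffold Magi2 (-18.4 points) followed in the authors' deposited table. Magi2 held 3 windows, more than any other gene of this list, with the others at -13.7 and 12.2 points, per the authors' deposited table. The lowest adjusted p was that of Exoc4, an exocyst subunit gene, at 12.3 points (0.000663), and Syne1 (-11.6 points) and the proton exchanger gene Slc9a9 (11.5 points) were also among the 5 smallest in the authors' deposited table.

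The largest differences of hippocampus at week 24 were decreases. Lingo2, a leucine-rich repeat membrane protein of neurons, had -25.0 and -16.0 points, per the authors' deposited table. The calcium-activated potassium channel gene Kcnma1 had -24.0 points and, in another window, 18.8 points, per the authors' deposited table. The adhesion gene Cadm2 stood at -23.5 points, Lpp at -21.6 points, the cadherin Pcdh15 of inner-ear tip links at -19.5 points and Nkain2 at -18.4 points, per the authors' deposited table. Cpq (-17.4 points) and the RNA-binding gene Khdrbs2 (-17.1 points) completed the 8 largest decreases of the list, per the authors' deposited table. Kcnma1, Pcdh15 and Nkain2 also had a higher window in this list. The smallest adjusted p belonged to lower windows in the receptor kinase gene Alk (-12.0 points, 0.00193), the dendritic spine regulator Kalrn (-14.3 points, 0.00361), Mctp1 (-14.4 points) and the neurodevelopmental gene Auts2 (-17.0 points) in the authors' deposited table. Increases were led by Rbfox1 at 19.8 points, with the mitochondrial coactivator Ppargc1a at 17.6 points, Spag16 at 17.3 points and Stpg2 at 16.2 and 15.9 points in the authors' deposited table. Ppargc1a also had a lower window in this list, at -15.6 points, per the authors' deposited table. Pcdh15 (16.1 points) and the metabotropic receptor Grm8 (15.2 points) were also higher in the authors' deposited table.

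Most windows of blood at week 3 were higher, although the list held the largest decrease of all, in the presynaptic gene Nrxn3 at -31.7 points, per the authors' deposited table (adjusted p = 0.0912). Other decreases were in Mctp1 (-29.1 points), the adhesion gene Dscam (-24.4 points), the cyclin-dependent kinase Cdk14 (-22.3 points), Etl4 (-20.3 points), Cntnap5a (-19.6 points), the fragile-site gene Macrod2 (-18.8 points) and Lsamp (-18.8 points) in the authors' deposited table. The peptidase gene Cpq at 35.4 points led the increases, before the synaptic adhesion regulator Mdga2 at 26.2 points, Astn2 at 22.7 points and Sox6, a transcription factor of red cell and neuron development, at 22.5 points, per the authors' deposited table. After these came the diacylglycerol kinase Dgkb (19.1 points), the latrophilin Adgrl3 (18.9 points), Agbl1 (18.4 points) and a second window of Lsamp (17.8 points) per the authors' deposited table. Astn2 also had a lower window in this list, at -15.8 points, per the authors' deposited table. The lowest adjusted p was that of Pkhd1, the polycystic kidney gene fibrocystin, at 13.3 points (0.00118), with another Pkhd1 window at 15.2 points, per the authors' deposited table. These windows all lay in the same direction as most of the list. Dab1 (17.01 points) and Unc13c (16.2 points) were the next genes in the authors' deposited table.

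The 163 windows of blood at week 8 fell in 100 genes, 40 of them with more than 1 window, and 21 genes had windows of both signs. Lsamp, an adhesion protein of the limbic system, had the largest decrease at -30.2 points, with further windows at -14.3 and 10.9 points in the authors' deposited table. Dscam (-21.3 points), the phosphatase gene Ptprn2 (-20.1 points), the heparanase-like gene Hpse2 (-20.0 points), Nrxn3 (-18.8 points), Dpp10 (-18.4 points), Mdga2 and the receptor phosphatase Ptprd (both -18.1 points) followed in the authors' deposited table. Dpp10, a partner of potassium channels, held the most windows of any gene in any list, 6, of which 5 were lower. All 4 windows of Ptprd, the longest of the genes at 2271 kb, were lower, from -10.2 to -18.1 points in the authors' deposited table. Lower windows also made up most of the list. Increases lay at the synaptic adhesion gene Lrrc4c (29.9 points), Epha6 (27.5 points), the lipoprotein receptor gene Lrp1b (23.6 points), the sarcoglycan Sgcd (22.8 points) and Cdh18 (21.2 points) in the authors' deposited table. Grid1 (19.99 points), the ryanodine receptor Ryr3 (19.2 points) and the cadherin Cdh13 (18.5 points) came next in the authors' deposited table. Epha6 shows how both kinds of window met in a single gene: the lower window at its internal start and the window with 27.5 points, from 60555001 to 60556000 on chromosome 16, lie in the 5′ part of the gene.

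Blood at week 24 had the shortest list, and 31 of 33 windows were higher. The exceptions were Macrod2 at -23.7 points and Dock2, a guanine nucleotide exchange factor of lymphocyte migration, at -15.1 points, per the authors' deposited table. No gene of this list held windows of both signs, but only Rbfox1 held more than 1 window there. Egfem1 had the largest increase of all lists, 38.9 points on chromosome 3 from 29664001 to 29665000 (adjusted p = 0.0709), in the authors' deposited table. A window in the protocadherin alpha cluster, annotated as the long genes Gm37013, Gm38666 and Gm38667, stood at 23.7 points, and the glypican Gpc5 at 23.3 points, per the authors' deposited table. Lingo2 (19.6 points), Lrrc4c (17.9 points), the guidance receptor Robo1 (17.4 points), the contactin Cntn4 (17.3 points) and Cntnap5b (16.9 points) were the next per the authors' deposited table. The lowest adjusted p, 0.00136, was shared by Lsamp (13.8 points) and Cntn4, and Rbfox1 and Cdh13 (14.2 points) were among the 5 smallest in the authors' deposited table.

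Of the 181 genes with a window, 105 (58.0%) had windows in 2 or more lists, 47 in 3 or more, 14 in 4 or more and 0 in all 6. Among coding genes of 100 to 500 kb, which are shorter and offer fewer windows, 144 of the 736 with a window (19.6%) had windows in 2 or more lists. No window inside very long genes was in more than 1 list (0 windows), and of all 8942 distinct called windows 18 (0.201%) were, so such a count is near the background. The number of windows followed gene length in part, with a Spearman correlation of 0.41 across the 216 genes, given as a description since longer genes offer more windows. Genes with a window had a median length of 763 kb and the 35 without of 596 kb. Etl4, the sickle tail gene of intervertebral disc development, had the most windows, 9, and Dpp10, Epha6, Gpc5, Lingo2, Lrp1b and Macrod2 had 8 each. Cntnap2 and Rbfox1 had 7, and Auts2, Lsamp and Tenm2 were among those with 6. Of 117 genes with 2 or more windows, 79 had both signs. The 5 longest genes, Ptprd, Cntnap2, Lsamp, Lrp1b and Macrod2, had 4, 7, 6, 8 and 8 windows.

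**Figure D5:**
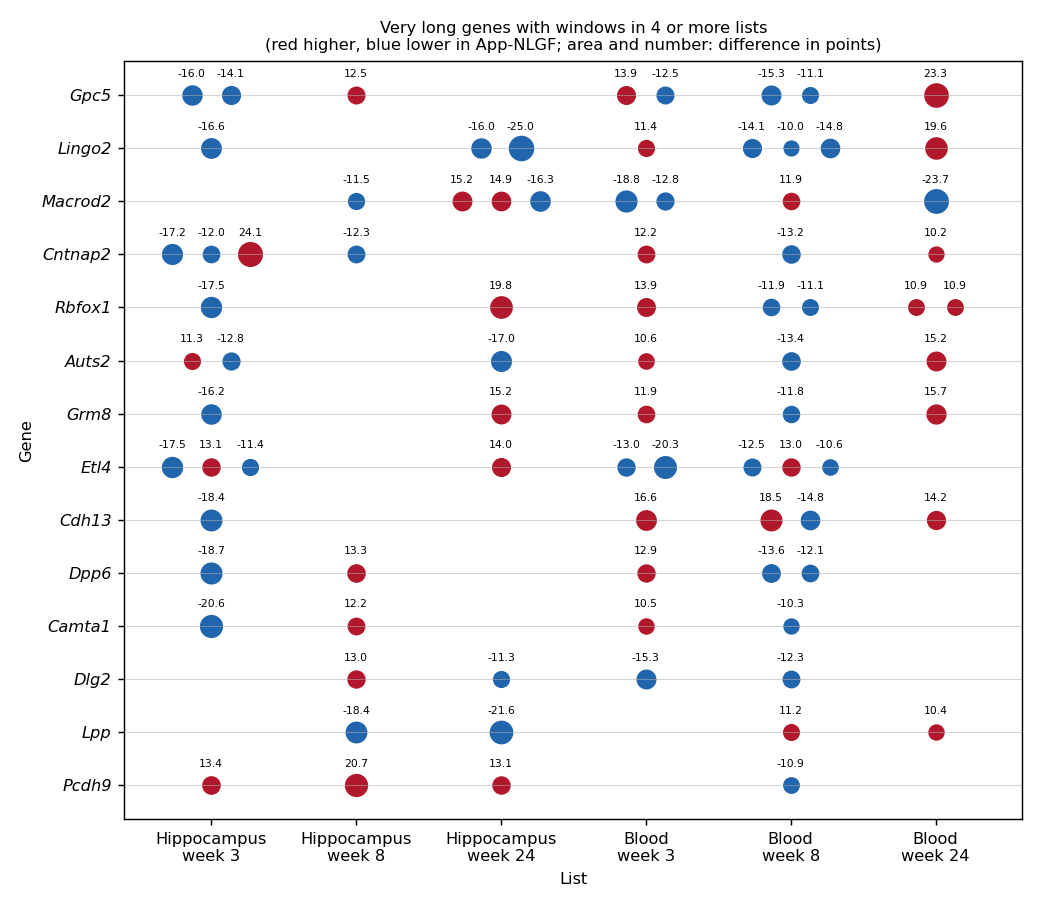
Windows of the 14 very long genes called in 4 or more lists, one column per list, with red for higher and blue for lower in App-NLGF, and the difference in percentage points above each point. Signs within a gene mostly change from list to list; Pcdh9 is higher at all 3 weeks in hippocampus, at 13.4, 20.7 and 13.1 points.

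Only Nell1 and Pcdh9 had a window at all 3 weeks in hippocampus, out of 114 genes with any, and each kept its sign. In hippocampus 26.4%, 19.4% and 24.5% of all 216 very long genes were called at weeks 3, 8 and 24. Longer genes offer more windows at each week, and no persistence is read from the number of genes called at all 3. Nell1, a secreted factor of bone growth, stood at -19.001, -26.8 and -12.0 points at weeks 3, 8 and 24 in the authors' deposited table. Its windows at weeks 3 and 24 were only 1000 bases apart, at 50689001 and 50691001 on chromosome 7, and this was the closest pair of windows from different lists. Pcdh9 stood at 13.4, 20.7 and 13.1 points at these weeks, and its window in blood at week 8 was lower, at -10.9 points, in the authors' deposited table. Blood had windows at all 3 weeks in 10 of 146 genes, namely Auts2, Cdh13, Cntnap2, Gpc5, Grm8, Lingo2, Lsamp, Macrod2, Nrxn3 and Rbfox1. There 31.5%, 46.3% and 15.7% of all very long genes were called at weeks 3, 8 and 24, and the same limit holds. For Auts2, Cntnap2, Grm8, Lingo2 and Rbfox1 each blood value had the direction of its list, higher at weeks 3 and 24 and lower at week 8. Macrod2 went the other way at each week, with -18.8 and -12.8 points at week 3, 11.9 points at week 8 and -23.7 points at week 24 in the authors' deposited table. Some genes kept a sign across tissues, among them Exoc4, whose 4 windows in 3 lists were all higher, Pkhd1 with 4 higher windows, and L3mbtl4 and Dlgap2 with 4 lower windows each.

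The genes shared by hippocampus and blood of the same week are counted here beside the share of all 216 very long genes called in blood. At week 3, 24 genes were shared, 42.1% of the 57 in hippocampus and 35.3% of the 68 in blood, while 31.5% of all very long genes were called in blood. At week 8, 24 were shared (57.1% of 42 and 24.0% of 100), beside 46.3% of all, and at week 24, 10 (18.9% of 53 and 29.4% of 34), beside 15.7% of all. Longer genes offer more windows in both tissues, and no excess of shared genes is read from these shares. Among shared genes with a single sign in each tissue, the sign was the same in 9 of 20 at week 3, 5 of 18 at week 8 and 2 of 8 at week 24. The balance of the lists themselves lay on opposite sides in the tissues at weeks 3 and 8, and at week 24 the very long genes leaned lower in hippocampus and higher in blood. Of 9 pairs of windows from different lists within 10 kb, 7 had the same sign. The pairs are few and mix tissues and weeks. Some joined lists that leaned the same way, as hippocampus at week 3 and blood at week 8 did. The same share was not counted over all called windows, so no agreement between lists is read from it. Examples at the same week in the authors' deposited table were Dlgap2 at week 3, with -13.7 points in hippocampus and -16.8 points in blood 6000 bases away, and Rbfox1 at week 24, with 19.8 points in hippocampus and 10.9 points in blood 7000 bases away. Of 6 pairs within 10 kb in the same list, all in blood at week 8, 2 had the same sign, those of Fgf12 and Zfhx3.

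Sorted by role, very long genes of most groups had windows about as often as very long genes as a whole, of which 181 of 216 had at least 1, at 2.52 windows per Mb. Over the 6 lists together, 193 windows in very long genes were higher and 267 lower. Counts by direction in each group are pooled in the same way unless a list is named, and the lists differ in balance. Among synaptic adhesion genes 20 of 22 had a window (2.75 per Mb), with 22 windows higher and 43 lower, and Fstl5 and Lrrtm4 had none. Of its windows, 2 were higher and 9 lower in hippocampus at week 3, 0 and 2 at week 8, 2 and 7 at week 24, 5 and 3 in blood at week 3, 6 and 22 at week 8, and 7 and 0 at week 24. These had the majority direction of very long genes as a whole except in hippocampus at week 8. All 9 IgLON, contactin and NCAM genes had a window (2.52 per Mb, 11 higher and 13 lower), and 8 of 9 cadherin and catenin genes (2.44 per Mb, 13 and 11). Axon guidance and ephrin receptor genes had 11 of 13 (3.09 per Mb, 16 higher and 25 lower), with Robo2 at -18.1 and -13.1 points in hippocampus at week 8, -10.8 points there at week 24 and 15.1 points in blood at week 24 in the authors' deposited table. The neuregulin receptor gene Erbb4 was called in blood alone, at 14.8 points at week 3 and 16.3, -14.0 and -10.2 points at week 8 in the authors' deposited table.

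Glutamate receptor and postsynaptic genes had windows in 15 of 17 (2.29 per Mb, 16 higher and 23 lower), without Grik2 and Grm5. The scaffold Dlg2 had 4 windows, at 13.0 points in hippocampus at week 8, -11.3 points there at week 24, and -15.3 and -12.3 points in blood at weeks 3 and 8 in the authors' deposited table. Grm7 was lower in each of its windows, at -20.6 points in hippocampus at week 3 and -14.6 and -16.1 points in blood at week 8 in the authors' deposited table. Calcium, sodium and potassium channel genes had windows in 10 of 13 (2.38 per Mb, 7 higher and 18 lower), with Cacna1c at -11.8 points (adjusted p = 0.000759) in blood at week 8 in the authors' deposited table. Of the windows of this group, 3 higher and 10 lower were in blood at week 8, where most windows of very long genes were lower. The group includes the potassium channel partners Dpp10, with 2 windows higher and 6 lower over all lists, and Dpp6, with 2 higher and 3 lower. Of presynaptic release genes, 4 of 6 had windows (2.42 per Mb, 7 higher and 2 lower), and Exoc4 alone held 4 of the higher ones. RNA-binding genes had windows in 3 of 4 (2.77 per Mb, 5 higher and 6 lower). The only very long GABA receptor gene, Gabrg3, had none.

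Transcription and chromatin genes had 3.55 windows per Mb, the most of the 13 groups, in 13 of 15 genes (16 higher and 22 lower), without Foxp2 and Hdac9. Their windows in hippocampus at week 3 were 8 lower and 2 higher, and included Zbtb20, Camta1 and the factors Sox5 (-12.0 points) and Foxp1 (-11.5 and 12.1 points) in the authors' deposited table. Genes of common fragile sites had 2.08 windows per Mb, in 13 of 17 genes (21 higher and 26 lower). The fragile-site genes of blood at week 8 had 8 windows higher and 8 lower, while 120 of all 163 were lower. Genes of kinases, phosphatases and cyclic nucleotide signalling had windows in 20 of 23 (2.28 per Mb, 12 higher and 26 lower), 14 of the 15 in blood at week 8 being lower, as at the phosphodiesterase gene Pde4b (-13.1 points) in the authors' deposited table. All 5 very long genes listed under blood and immune function had a window (2.57 per Mb, 2 higher and 6 lower). Of these windows 0 were in blood at week 8. Mecom and Sox6, described above with roles in blood cells, were not in this group, and both had lower windows in that list. These stood at -11.0 points in Mecom and -15.4 and -10.8 points in Sox6 in the authors' deposited table. Elmo1, an engulfment adaptor, had -10.6 points in hippocampus and -11.2 points in blood at week 3 in the authors' deposited table. These groups were compared by counts alone, and no group was tested against another.

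Along the genes, the windows were spread from end to end. For 369 windows in genes with a known strand, 99, 97, 84 and 89 lay in 4 equal stretches in order from the 5′ end. Hippocampus at week 3 leaned towards the 5′ end, with 24, 14, 9 and 10, and blood at week 8 had 40, 30, 30 and 22. Blood at week 24 leaned the other way, with 4, 3, 10 and 10. Hippocampus had 7, 12, 12 and 11 at week 8 and 13, 12, 10 and 18 at week 24, and blood had 11, 26, 13 and 18 at week 3. These counts are small, stand without a share of the grid in each stretch, and were not tested. A noncoding gene overlapped 20 of the 460 windows and a shorter coding gene 4 of them, such as Lrrtm1 inside Ctnna2 at -11.5 points in blood at week 8 in the authors' deposited table. Of the genes just over the length limit, Edil3 (501.8 kb), Dock1 (503.0 kb) and Samd12 (503.4 kb) had 1 window each, and Dnm3 (495.9 kb), Lrrc7 (494.8 kb) and Cacna1e (494.0 kb), just under the limit and no members, had 2, 3 and 3.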

How the data were processed

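The submitters' processing notes name mm10 and the tools FastQC, Trim Galore, Bismark and methylKit. Versions, coverage filter and adjustment method: not given in the sources used here. By the labels' protocols, libraries were bisulfite-converted after adapter ligation and amplified. Incomplete conversion reads as methylation. The authors deposited, for each called 1 kb window, a p-value, an adjusted p-value and a methylation difference in percentage points. No column of values per library was used (0 columns), so depth is unknown and no interval for a difference can be given. Per the series' design text, sex was a covariate.

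Genes, lengths and starts came from RefSeq GRCm38.p6, which shares mm10 coordinates. The grid spans the first to the last annotated gene of each autosome, and whether each grid window was tested is unknown. Numbers of windows tested were recovered from p over adjusted p, assuming Benjamini-Hochberg: 46.2% to 78.3% of ranks up to 500 were whole within 0.02, giving 2303865 to 2330499 windows. RefSeq starts were missing for some genes, so counts at internal starts are of listed starts. Intervals are exact Clopper-Pearson at 95% over windows and cover counting error only. Python 3.11.15, pandas 2.3.3 and scipy 1.17.1 were used. Position rules and the recovery were tested on simulated data or by direct search.

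Named genes were the 8 largest increases, 8 largest decreases and 5 smallest adjusted p of each list, genes with most windows or in 3 or more lists as far as space allowed, the 5 longest, those nearest 500 kb, and up to 4 per gene list; genes at internal starts and further examples were chosen after their values were seen. Members, gene lists and rules were chosen with earlier results of these data known, and the internal starts were examined after the values were seen. Chromosome X was left out by the rule. Some genes that the naming rule selects are not reported here.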

Additional observations from a re-analysis of the deposited data

How the results depend on the processing

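In the order hippocampus weeks 3, 8 and 24 and blood weeks 3, 8 and 24, very long genes of at least 1000 kb held 25, 14, 23, 34, 75 and 18 windows in 18, 11, 17, 26, 37 and 17 genes. With an adjusted p under 0.01, 6, 2, 4, 5, 22 and 3 windows in 6, 2, 4, 4, 21 and 3 genes were left, and with at least 15 points 32, 16, 23, 34, 43 and 15 windows in 31, 16, 17, 31, 38 and 17 genes, against 69, 48, 64, 83, 163 and 33 windows in 57, 42, 53, 68, 100 and 34 genes. Genes in more than 1 list numbered 38, 2 and 39 under these settings, against 105. The share of higher windows in hippocampus at week 8, 52.1%, turned to 35.7% at 1000 kb and 31.2% at 15 points. In blood at week 8 it was 37.2% at 15 points. At an adjusted p under 0.01 it was 50% in hippocampus at week 3, 0% at week 24 and 100%, 4.55% and 100% in blood at weeks 3, 8 and 24, over few windows. The density ratio to the whole grid was 0.680 in hippocampus at week 8 at 1000 kb. At an adjusted p under 0.01 it was 1.44 and 0.690 in hippocampus at weeks 3 and 24, and 0.682, 0.164 and 1.36 in blood at weeks 3, 8 and 24. In blood at week 8 it turned to 1.17 at 15 points and was 0.883 against windows away from gene ends, a setting added after seeing the data, as was leaving out windows near internal starts. Counting windows within 5 kb as shared gave 1 shared pair in place of 0. The cause of these shifts was not tested, apart from fewer windows or genes entering. Merging neighbours, a 10 kb distance from gene ends, leaving out chromosome 16 and leaving out windows in shorter genes moved no result past its interval or by over 1.5 times. No paired analysis was possible because no value per library was used, and for the same reason no replicate could be left out.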
